A study of Mus musculus with 12 samples.

Results

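The exon3ext polyA sites (PASs) are read here as the sites that the deposited list places beyond the 3′-most exon of a gene. They were selected by that region label alone, and they make up 3406 of the 56204 entries (6.06%). These entries hold 3369 distinct sites and fall in 2035 of the 16627 genes of the list. The list comes from 3′READS+, a method that sequences the junction of a transcript and its polyA tail, applied to hippocampal slices of C57BL/6 mice whose listed age is 3 months, with the dentate gyrus trimmed away. Chemical long-term potentiation (LTP) was induced with forskolin, followed by forskolin with raised potassium and calcium, and control slices from the same animals received the solvent DMSO. The 12 libraries form 4 groups of 3 (control 1 hr, LTP 1 hr, control 3 hr and LTP 3 hr), and 1 list of PASs serves them all. The 12 columns of read numbers in the list could not be tied to samples by name, and such columns were left out whole, also as sums. No read number, depth, read share or difference between LTP and control slices is therefore given, and every value below describes the positions of the sites, without a test.

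Cleavage and polyadenylation ends a transcript a short distance downstream of a polyA signal, and a gene with several PASs gives transcripts that differ in their 3′ ends by alternative polyadenylation (APA). When the PASs share the last exon, the choice among them sets the length of the 3′UTR, the part of the mRNA that carries binding sites for microRNAs and RNA-binding proteins. Neurons are known for long 3′UTRs, and some of these run past the gene end drawn in an annotation, which makes a PAS downstream of that end a candidate for a longer 3′UTR of the same gene. A position alone does not show that the transcript is continuous with the gene upstream.

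Distance was measured in the direction of transcription from the last exon3 PAS, exon3 being read as the label of sites in the 3′-most exon. Of the 15075 genes with an exon3 PAS, 1817 also had an exon3ext PAS, or 12.1% (95% Wilson interval 11.5 to 12.6%, counting error only). A distance could be taken for 3021 entries, and it was positive, that is downstream, in 3020 of these. The exception was *Prdm2*, which encodes a histone methyltransferase with zinc fingers, on the minus strand of chromosome 4. Its exon3ext PAS at position 142717375 lay between the exon3 PASs at 142721449 and 142698949, and 20081 nt upstream of the last one at 142697294. The remaining 385 entries belonged to 218 genes without any exon3 PAS. Of these genes, 79 had an intronic PAS, and 138 had no label other than exon3ext and UA. The label UA was read as that of sites upstream of the gene on the opposite strand.

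The exon3ext PASs were unequally divided between the DNA strands. There were 3073 entries in genes on the plus strand and 333 in genes on the minus strand, so that 90.2% were on the plus strand (95% Wilson interval 89.2 to 91.2%). The exon3 PASs of the same list were nearly balanced, with 15935 on the plus strand and 15344 on the minus strand, a plus-strand share of 50.9% (50.4 to 51.5%). Of the other labels, exon53ext had a plus-strand share of 74.4% (68.9 to 79.3%, 201 of 270 entries), and the remaining ones lay between 40.3% for exonI and 52.6% for exon53. Counted by gene, 1600 of the 7626 plus-strand genes with an exon3 PAS had an exon3ext PAS (21.0%, 20.1 to 21.9%), against 217 of the 7449 minus-strand genes (2.91%, 2.55 to 3.32%). The intervals of the 2 strands do not overlap. The imbalance was present on every one of the 20 chromosomes with over 100 exon3 PASs, where the plus-strand share ran from 83.6 to 96.6% for exon3ext PASs and from 45.1 to 56.8% for exon3 PASs.

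**Figure D1:**
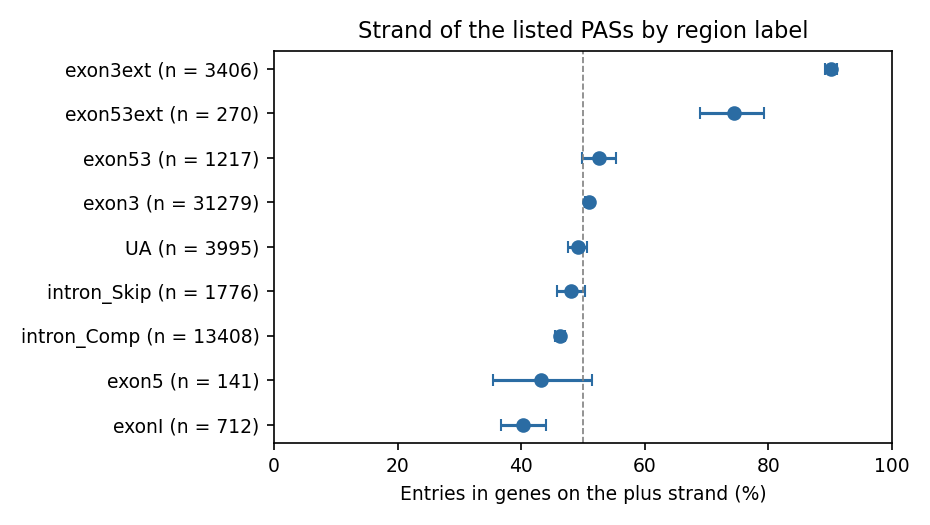
Share of the entries of each region label that belong to genes on the plus strand, in percent. Points are shares, bars are 95% Wilson intervals, n is the number of entries and the dashed line marks equal division. The exon3ext entries stand at 90.2%, exon53ext at 74.4% and the other labels between 40.3 and 52.6%.

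The strand imbalance depended on the distance from the last exon3 PAS. Within 50 nt, 120 entries were on the plus strand and 102 on the minus strand, a plus-strand share of 54.1% (47.5 to 60.5%). Between 50 and 5000 nt, there were 2421 plus-strand and 135 minus-strand entries, or 94.7% on the plus strand. The share was 80.5% between 5000 and 10000 nt, with 165 against 40 entries. Beyond 10000 nt, there were 18 plus-strand and 19 minus-strand entries (48.6%, 33.4 to 64.1%). Of these minus-strand entries, 9 belonged to *Fcgr1*, and without that gene the plus-strand share was 64.3% (45.8 to 79.3%, 18 against 10 entries). Minus-strand members were thus scarce in the middle range of distance, where *Cux1*, which encodes a homeobox transcription factor, was 1 of 90 minus-strand genes against 1482 plus-strand genes. Genes of both strands had a listed PAS of another gene downstream on the same strand about equally often. A PAS of another gene on the same strand lay 50 to 5000 nt beyond the last exon3 PAS in 3.42% of the plus-strand genes (3.04 to 3.85%) and in 2.97% of the minus-strand genes (2.61 to 3.38%). On the opposite strand, a PAS of another gene lay within 1000 nt of 12.6% of the plus-strand last exon3 PASs. The minus-strand share was 14.2%, and the intervals do not overlap. Whether neighbouring genes have a part in the strand imbalance was not tested. How the extension label was assigned is not given in the sources used here, and its part in the strand imbalance was not tested. Shares of genes with a member are therefore compared within a strand.

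**Figure D2:**
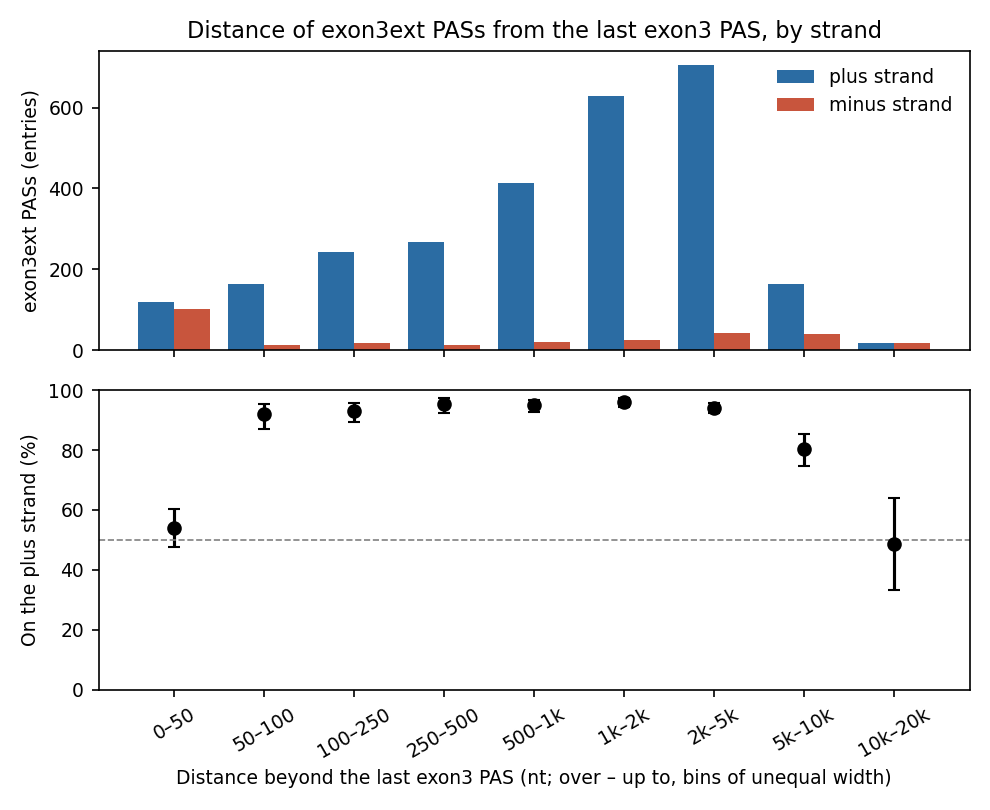
Number of exon3ext entries (top) and their plus-strand share in percent (bottom) by distance beyond the last exon3 PAS in nt, in bins of unequal width. Bars in the lower panel are 95% Wilson intervals and the dashed line marks equal division. The plus-strand share is 54.1% up to 50 nt and 48.6% beyond 10000 nt, where 9 of 19 minus-strand entries belong to Fcgr1, and 80.5% or more of the entries are on the plus strand in every bin between.

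The median distance was 1159 nt (25th and 75th percentiles 319.5 and 2572 nt), with the nearest at 25 nt and the farthest at 18942 nt. Of the 3020 downstream entries, 1376 (45.6%) were within 1000 nt, 2778 (92.0%) within 5000 nt and 37 beyond 10000 nt. At the near end, 222 entries (7.35%) lay within 50 nt, just past the 24 nt over which PASs had been clustered. Such near sites made up 4.41% of the plus-strand members and 34.5% of the minus-strand members. The median distance was 1190 nt on the plus strand and 524 nt on the minus strand, and distances over 5000 nt were found for 6.72% and 19.9% of the members.

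A single exon3ext PAS was listed for 1326 genes, a pair for 385 genes, 3 for 162, 4 for 80, and 5 or more for 82. Plus-strand genes accounted for 664 of the 709 genes with at least 2. Among genes with a downstream distance, the farthest exon3ext PAS was a median of 676 nt away in the 1201 genes with 1 such site. The median was 2377 nt in the 615 genes with 2 or more, and 3978 nt in the 73 genes with 5 or more. By construction, the farthest of several sites tends to lie further out than a single site, and this rise is not read as a trait of the genes. Neighbouring exon3ext PASs were a median of 464 nt apart (142 to 1300.5 nt between the quartiles, 1371 pairs), and neighbouring exon3 PASs 259 nt (85 to 737 nt, 16203 pairs).

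A downstream member by construction widens the stretch over which the PASs listed for a gene lie, and the values here give by how much. In the 1816 extended genes with a downstream member, the exon3 PASs alone spanned a median of 186 nt, and 697 of these genes (38.4%) had a single exon3 PAS and thus no span. With the exon3ext PASs included, the median span was 1974.5 nt. The distance to the farthest exon3ext PAS exceeded the span of the exon3 PASs in 1347 genes (74.2%), which by construction include the 697 without a span. It did so in 650 of the 1119 genes (58.1%) that had 2 or more exon3 PASs.

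The genes with the most exon3ext PASs had differing roles. *Pyroxd1*, which encodes an oxidoreductase, had 12, more than any other gene, on the plus strand of chromosome 6. They ran from position 142312753 to 142317113, or 1204 to 5564 nt beyond its last exon3 PAS at 142311549. *Cc2d1b* on chromosome 4 had 11, from 115 to 3959 nt beyond its only exon3 PAS. *Mad2l1*, which encodes a protein of the spindle assembly checkpoint, also had 11, from 111 to 6222 nt. The other two genes of this rank had 10 each. In *Atp6v1g1*, which encodes a subunit of the proton pump of synaptic vesicles and lysosomes, they lay 94 to 2671 nt away. In *Wasf3*, which encodes a regulator of actin branching, they were packed into the interval from 1044 to 1769 nt. All 5 genes are on the plus strand.

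**Figure D3:**
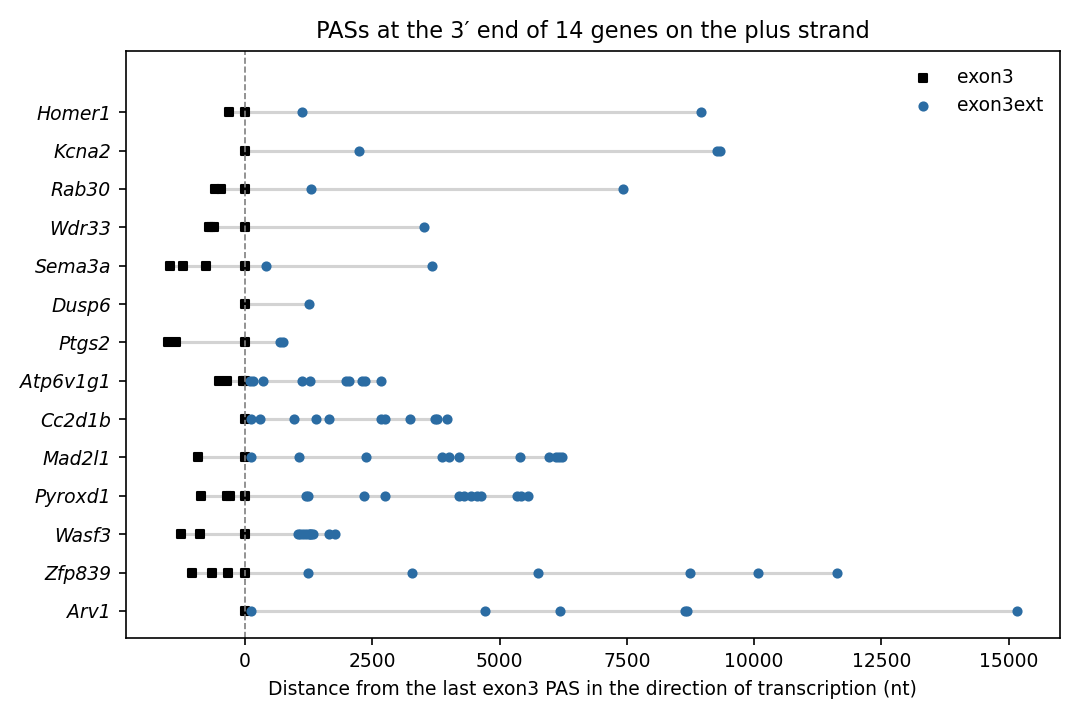
Positions of exon3 PASs (black squares) and exon3ext PASs (blue circles) in 14 plus-strand genes, as distance from the last exon3 PAS in nt in the direction of transcription. Kcna2 and Homer1 show a near and a far site with a wide gap between them, while Pyroxd1 and Wasf3 show runs of closely spaced sites.

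The farthest members were more evenly divided, with 6 plus-strand and 4 minus-strand genes among the 10 ranked genes whose exon3ext PAS was most distant. Genes with a member also listed under another gene were left out of this ranking. Among those left out, *A330040F15Rik* on the minus strand had its farthest member at 14754 nt. *Fcgr1*, which encodes the high-affinity Fc receptor for immunoglobulin G and is a gene of microglia and other myeloid cells, had 9 exon3ext PASs on the minus strand of chromosome 3. Its last exon3 PAS was at position 96088103, and no member lay nearer than 15757 nt. Its sites fell between positions 96072346 and 96069161, the last of them 18942 nt away. *Cux1* had 6 members on chromosome 5, the first 3 at 1076, 1498 and 1546 nt, then at 6991 and 7908 nt, and the last at 15335 nt. *Arv1*, which encodes a protein of sterol transport in the endoplasmic reticulum, had 6 on the plus strand of chromosome 8, at 126, 4708, 6195, 8638, 8684 and 15169 nt from its only exon3 PAS at 127258010. The rest of the 10 were *C230091D08Rik* at 17461 nt, *Akirin2* at 13799 nt, *AU041133* at 13716 nt, *Zfyve21* at 13392 nt, *Actr8*, which encodes a chromatin remodelling subunit, at 13133 nt, *Hebp1* at 12971 nt and *Zfp839* at 11618 nt.

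In 7 of these 10 genes, the farthest exon3ext PAS lay past a PAS of another gene on the opposite strand. The nearest such PAS downstream of *Fcgr1* belonged to the histone gene *Hist2h3b*, 14533 nt from the last exon3 PAS and so before all of the *Fcgr1* members. That of *Arv1* belonged to *Fam89a* at 6147 nt, before 4 of its 6 members. For *Zfyve21*, an exon3 PAS of *Ppp1r13b* came first, at 72 nt, and for *Actr8* one of *Il17rb* at 2922 nt. *Cux1*, *Hebp1* and *AU041133* were the genes of this group in which no PAS of another gene came before the farthest member. Over all extended genes, the farthest member lay past the nearest PAS of another gene on either strand in 217 of 1817 (11.9%, 10.5 to 13.5%), and in 209 of these the PAS it passed first was on the opposite strand. By strand, the shares were 12.6% on the plus strand (11.1 to 14.3%) and 6.91% on the minus strand (4.23 to 11.1%).

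Few members shared their own strand with a neighbour. A PAS of another gene on the same strand lay within 1000 nt of 87 of the 3406 entries (2.55%, 2.08 to 3.14%), compared with 191 of the 15075 last exon3 PASs (1.27%, 1.10 to 1.46%). On the opposite strand, the shares were 12.3% (11.2 to 13.4%) and 13.4% (12.9 to 13.9%), with overlapping intervals. A site listed under more than 1 gene counts as near another gene on the same strand. All 76 entries of the 39 such sites are therefore within the 87, and this share does not measure proximity alone. Only 14 of the 3020 downstream entries (0.464%), in 9 genes, lay beyond a PAS of another gene on their own strand, and 13 of these were listed under several genes. Pairs of a gene and a Gm gene model listed with the same sites were among them, such as *Eno1* and *Gm5506*, or *Hnrnpa1* and *Gm5643*. The 1 entry listed under a single gene was in *Gm10094*, 2332 nt from its last exon3 PAS and past *Sap18*. It is not free of shared listing either. The *Sap18* PAS lay at 2231 nt, the place of a *Gm10094* member listed under 2 genes, and the only exon3 PAS of *Gm10094* was also listed under 2 genes.

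Genes with many exon3 PASs more often had an exon3ext PAS. On the plus strand, the share of genes with a member was 16.0% for genes with 1 exon3 PAS, 21.3% with 2, 29.3% with 3 and 32.3% (27.4 to 37.6%) with 6 or more. On the minus strand, the corresponding shares were 2.43%, 2.49%, 3.14% and 5.75%. Plus-strand genes with an intron_Comp PAS, the more frequent of the intronic labels, had a member in 631 of 2197 cases (28.7%, 26.9 to 30.6%), and those without one in 969 of 5429 (17.8%, 16.9 to 18.9%). The same order held among genes with equal numbers of exon3 PASs, with 24.9% against 13.4% for genes with 1 exon3 PAS, 25.1% against 19.7% with 2, and 39.6% against 22.9% with 3. For intron_Skip PASs the shares were 22.2% with and 20.9% without. For UA PASs they were 29.2% with (26.4 to 32.1%) and 19.8% without (18.8 to 20.8%). Whether these shares follow the number of sites detected in a gene was not tested.

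**Figure D4:**
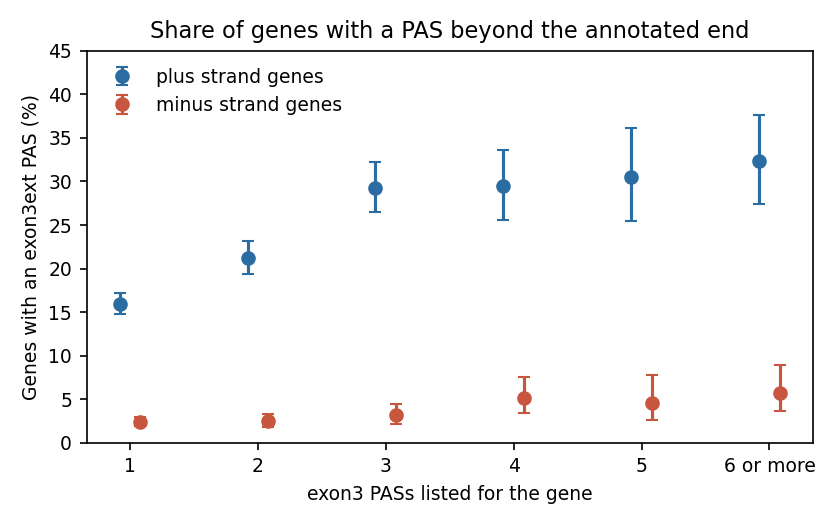
Share of genes with an exon3ext PAS, in percent, by the number of exon3 PASs listed for the gene, for plus-strand (blue) and minus-strand (red) genes. Points are shares and bars are 95% Wilson intervals. The plus-strand share goes from 16.0% at 1 exon3 PAS to 32.3% at 6 or more, and the minus-strand share from 2.43% to 5.75%.

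By the gene type that the GENCODE annotation gives for the symbol, 1423 of 6747 protein-coding genes on the plus strand had a member (21.1%), against 5 of 105 long noncoding genes (4.76%, 2.05 to 10.7%). On the minus strand the order was the other way round, with 170 of 6643 protein-coding genes (2.56%) and 21 of 115 long noncoding genes (18.3%, 12.3 to 26.3%). *Rmst*, a long noncoding RNA of the developing brain, was one of the latter, with its member 9539 nt away on chromosome 10. The space downstream of a gene was taken as the distance from its last exon3 PAS to the next PAS of another gene on either strand. On the plus strand, a member was listed for 21.7% of the genes with a space of up to 2000 nt, 23.2% (21.2 to 25.4%) with 2000 to 10000 nt, 19.5% (18.0 to 21.1%) with 10000 to 50000 nt and 20.7% with more. On the minus strand, the shares in the same order were 2.24%, 2.68%, 3.31% and 3.04%, with overlapping intervals.

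Cytosolic ribosomal protein genes had the highest share of extended genes among the lists with 20 or more plus-strand genes. Of the 45 on the plus strand, 21 had an exon3ext PAS (46.7%, 32.9 to 60.9%), against 21.0% of all plus-strand genes. On the minus strand, 2 of 34 had one, *Rps7* at 25 nt and *Rps4x* at 32 nt. *Rpl36* on chromosome 17 had members 59, 259 and 7374 nt beyond its only exon3 PAS at 56753670, and an exon3 PAS of *Lonp1* on the opposite strand lay 50 nt from that site. *Rpl6* had members at 243 and 2608 nt, and *Rpl21* had a single one at 2566 nt. The farthest member was a median of 636 nt away over the 23 genes of both strands. Ribosomal protein genes have many processed copies in the genome, and 2 of the 23, *Rpl26* and *Rps23*, had members that were also listed under another gene.

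Zinc finger genes of the Zfp series, most of them transcription factors, had a member in 50 of 163 plus-strand genes (30.7%, 24.1 to 38.1%). On the minus strand, 4 of 165 had one (2.42%). The shares over all genes were 21.0% on the plus strand and 2.91% on the minus strand. Their farthest members lay at a median of 1790.5 nt over the 54 genes. *Zfp839* on chromosome 12 had 6, at 1242, 3282, 5754, 8732, 10084 and 11618 nt, and an exon3 PAS of *Cinp* on the opposite strand lay 2667 nt downstream. *Zfp846* had a single member at 10217 nt, with no PAS of another gene before it.

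Rab GTPases, which direct vesicle traffic, had a member in 8 of 24 plus-strand genes (33.3%), an interval (18.0 to 53.3%) that includes the share of all plus-strand genes. *Rab30*, which encodes a Rab of the Golgi apparatus, had its last exon3 PAS at position 99985624 of chromosome 7 and members at 99986912 and 99993045, or 1288 and 7421 nt away. *Rab27a*, which encodes a Rab of secretory vesicle docking, had members at 165 and 4247 nt, and *Rab18* at 1372 and 4196 nt. Among axon guidance genes, 9 of 30 on the plus strand had a member (30%, 16.7 to 47.9%), an interval that also includes the share of all plus-strand genes. *Sema3a*, which encodes a secreted repulsive cue, had 4 exon3 PASs over 1472 nt and members 405 and 3672 nt beyond the last. *Sema3g*, a related semaphorin gene, had them at 78 and 3735 nt. *Efnb3*, which encodes an ephrin ligand and lies on the minus strand, had 15 exon3 PASs and a single member at 4187 nt.

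The lists of synaptic genes were small, and the plus-strand interval of each of the 5 described here includes the 21.0% of all plus-strand genes. Of the glutamate receptor genes, 1 of 6 on the plus strand and none of 14 on the minus strand had one (0 of 14 allows a share of up to 21.5%). It was *Grin3b*, which encodes an NMDA receptor subunit, at 3284 nt. *Gabrb1*, which encodes a beta subunit of the GABA-A receptor, had members at 2321 and 2357 nt and was 1 of 3 plus-strand GABA-A receptor genes. Of 16 plus-strand genes for postsynaptic scaffolds and adhesion, *Dlg1* had a member at 1782 nt, *Dlg2* at 138 nt and *Shank3* at 41 nt. *Cplx2*, which encodes a complexin of the release machinery, had one at 917 nt and was the 1 case among 12 release genes. The 24 plus-strand genes of calcium and cyclic AMP signalling had 2 cases, *Crtc2*, a coactivator of CREB, at 55 nt and *Prkcc*, protein kinase C gamma, at 45 and 75 nt. *Prkar2b*, a regulatory subunit of protein kinase A, was the 1 case among 22 on the minus strand, at 26 nt. All 4 members of these signalling genes lay within 100 nt.

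The farthest member of a potassium channel gene lay at a median of 989.5 nt over 8 genes, against 1201 nt over all extended genes. *Kcna2* (Ensembl identifier ENSMUSG00000040724.5), which encodes a voltage-gated potassium channel of axons and had the farthest of these members, had a single exon3 PAS at position 106908656 on the plus strand of chromosome 3. Its exon3ext PASs were at 106910889, 106917923 and 106917989, or 2233, 9267 and 9333 nt further, and the next PAS of another gene, *Kcna10*, lay 89982 nt downstream. *Kcnn3*, which encodes a calcium-activated potassium channel, had members at 2353 and 2648 nt, and *Kcnj12*, which encodes an inward rectifier, had one at 2138 nt. The farthest members of the other five genes lay between 28 and 1065 nt. Potassium channel genes had a member in 6 of 36 plus-strand cases (16.7%, 7.87 to 31.9%), an interval that includes the 21.0% of all plus-strand genes. *Scn1a*, which encodes a sodium channel of inhibitory interneurons and lies on the minus strand of chromosome 2, had members at 6694 and 8043 nt. *Cacnb2*, which encodes an auxiliary calcium channel subunit, had one at 904 nt.

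Of the immediate early and other activity-induced genes, 3 of 18 on the plus strand had a member (16.7%, 5.84 to 39.2%) and none of 16 on the minus strand. The shares over all genes were 21.0% on the plus strand and 2.91% on the minus strand, and the intervals of this list include them. *Dusp6* (ENSMUSG00000019960.8), which encodes a phosphatase of ERK, had its only exon3 PAS at position 98730119 of chromosome 10 and a member at 98731382, 1263 nt further. *Ptgs2*, which encodes the inducible cyclooxygenase, had members at 151955289 and 151955357 on chromosome 1, 683 and 751 nt beyond the last of its 3 exon3 PASs. *Homer1*, which encodes a postsynaptic scaffold with an activity-induced short form, had the widest reach of the list, 8952 nt, with its first member at 1119 nt and the next PAS of another gene, *Jmy*, 26089 nt downstream. *Fos*, *Egr1*, *Bdnf* and *Creb1* on the plus strand and *Arc* and *Notch1* on the minus strand had none.

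**Figure D5:**
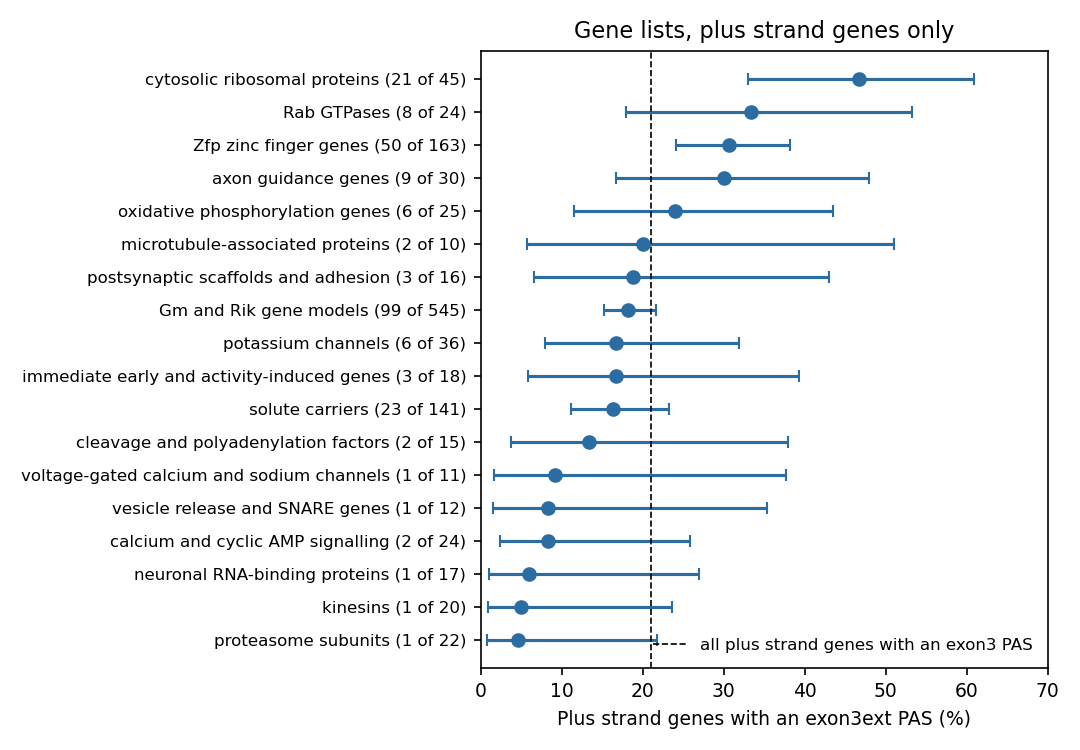
Share of plus-strand genes with an exon3ext PAS, in percent, for the lists with 10 or more plus-strand genes and at least 1 case. Points are shares, bars are 95% Wilson intervals, and the numbers in parentheses are genes with a member of genes with an exon3 PAS. The dashed line is the share over all plus-strand genes, 21.0%, and the intervals of cytosolic ribosomal protein genes and Zfp genes lie above it.

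The 3′ end processing machinery itself had 2 cases among 15 plus-strand genes of cleavage and polyadenylation factors (13.3%, 3.74 to 37.9%). This interval includes the 21.0% of all plus-strand genes. *Wdr33*, which encodes the subunit that contacts the polyA signal, had a member 3506 nt beyond the last of 4 exon3 PASs, past *Sft2d3* on the opposite strand at 1126 nt. *Cpsf2*, another subunit of the same complex, had one at 600 nt. Of 17 plus-strand genes for neuronal RNA-binding proteins, *Celf3*, a splicing regulator, was the 1 case, at 2080 nt. The interval of that share (1.05 to 27.0%) also includes 21.0%.

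Of all plus-strand genes, 21.0% had a member, and the plus-strand interval of each of the remaining lists described here includes that share. Solute carriers had a member in 23 of 141 plus-strand genes (16.3%, 11.1 to 23.3%). *Slc19a1*, the folate carrier, had 5 between 1091 and 6765 nt, with *Col18a1* on the opposite strand at 1754 nt. *Slc38a6* had a member at 7952 nt. *Slc7a6* had a member at 4603 nt, past *Slc7a6os* on the opposite strand at 1732 nt. Oxidative phosphorylation genes had 6 of 25 (24%), the farthest being *Ndufb3* of complex I at 1462 nt, *Atp5s* at 1219 nt and *Cox5a* of complex IV at 618 nt. Proteasome genes had 1 of 22, *Psma2* at 217 and 790 nt, and genes of the kinesin family 1 of 20, *Kif26b* at 4176 and 6348 nt. Of 10 microtubule-associated protein genes, *Stmn1* had a member at 741 nt and *Clasp2* at 58 and 188 nt. Gene models named Gm or Rik had 99 of 545 on the plus strand (18.2%) and 29 of 528 on the minus strand (5.49%, 3.85 to 7.78%). The share over all minus-strand genes was 2.91%. These gene models made up 7.81% of the plus-strand and 22.5% of the minus-strand members.

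The lists of cell type markers were also small, and the plus-strand interval of each includes 21.0%. None of the 20 neuronal identity markers had one, 7 of them on the plus strand, which allows a share of up to 35.4% there. *S100b* was the 1 astrocyte marker of 9 on the plus strand, at 1507 nt. Of 8 plus-strand oligodendrocyte markers, *Cnp*, a myelin enzyme, had a member at 1148 nt, past an exon3 PAS of *Dnajc7* on the opposite strand at 1069 nt. *Cspg4*, the NG2 proteoglycan of oligodendrocyte precursors, had a member at 48 nt. *Cx3cr1*, the fractalkine receptor of microglia, had one at 42 nt on the minus strand. Which cells of the slice the transcripts ending at the members came from was not tested.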

How the data were processed

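3′READS+ libraries were made by the authors from 12 slice samples. Reads were mapped with Bowtie2, for which the labels list the mouse build mm9, reads with at least 2 unaligned Ts defined PASs, and PASs within 24 nt were clustered. The deposited list gives each PAS with its gene, strand, position and region label. Definitions of the labels are not given in the sources used here, and the meanings stated above are assumed. Its 12 columns of read numbers match no sample label by name and were not used, so that no comparison between groups was made and depth is not given. Positions are printed as in the list. No genome of that build was used, and no sequence is shown. GENCODE M21 supplied identifiers and gene types by symbol (13669 of the 15075 genes with an exon3 PAS had a type).

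Counts, distances and Wilson intervals (95%, counting error only) were computed with Python 3.11.15, pandas 2.3.3, numpy 2.4.6 and scipy 1.17.1, tested on simulated data, and drawn with matplotlib 3.10.9. Sites are not replicates and nothing was tested. The named genes are the 10 with the farthest member, the 5 with the most members, the 3 farthest of each of 25 lists, and genes the study names. Genes with shared sites were left out of these rankings. *Prdm2*, *Rps7*, *Rps4x*, *Rpl26*, *Rps23*, *A330040F15Rik*, the pairs with shared sites and the genes that lie next to a member were named after their values were seen. The members and lists were chosen with earlier results of these data known.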

Additional observations from a re-analysis of the deposited data

How the results depend on the processing

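Of 117 values under other settings, 84 were counted as unchanged and 33 as moved. Unchanged does not mean close for a small list with a wide interval. The share of GABA-A receptor genes, for example, was 8.33% on both strands together and 33.3% on the plus strand, and was counted as unchanged. Splitting by strand, chosen after seeing the data, moved most. Minus-strand genes alone gave 333 members, a share of extended genes of 2.91% (21.0% on the plus strand), a median distance of 524 nt, a gap of 906 nt, a span with members of 1262.5 nt, 3.60% and 9.31% of members near another gene's PAS on the same and the opposite strand, and 1 member beyond another gene. Plus-strand genes alone gave list shares counted as moved for axon guidance (30%), ribosomal (46.7%), oxidative phosphorylation (24%), Zfp (30.7%) and solute carriers (16.3%). The same held for Rab (33.3%), Gm and Rik (18.2%), microglia (0) and long noncoding RNA names (0). Shares of other lists differed as well but were counted as unchanged, such as glutamate receptors, 5% on both strands together and 16.7% on the plus strand. The plus-strand share of members was 88.1% by gene, 93.1% without PASs within 100 nt and 91.7% without Gm and Rik models, and that of members beyond 10000 nt was 64.3% without *Fcgr1* (these settings, too, were chosen after seeing the data). Without PASs within 100 nt, 10.1% of genes were extended. The median distance was 1247 nt from the last PAS of any label other than exon3ext and UA, and 662.5 nt for the nearest member of each gene. The gap was 706 nt when PASs within 100 nt were joined. The share near another gene's PAS was 6.08% within 5000 nt and 1.85% counting exon3 PASs alone on the same strand, and 8.13% within 500 nt, 28.7% within 5000 nt and 10.6% counting exon3 PASs alone on the opposite strand. Members beyond another gene numbered 6 counting exon3 PASs alone and 1 when members listed under more than 1 gene were left out. The search for polyA signals upstream of the members was not run, as no genome of the listed build was used. No paired analysis was possible because read numbers could not be tied to replicates by name, and no test was made. The read support of a single member, on which the reliability of its position rests, is not analysed here.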
